A study of Ovis aries with 6 samples.

Results

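miR-221 and miR-222 were followed in longissimus muscle, the long muscle of the back, of 2 sheep breeds, Qianhua Mutton Merino (QHMM) and, set against it, Small Tail Han (STH). Rows of the deposited miRNA table were taken where the name, without a species prefix, was miR-221 or miR-222 with or without an arm. This gave 4 names out of 10430: miR-221, miR-221-5p, miR-222-3p and miR-222-5p, which stand on 7 of the 11161 rows. Both groups were defined by breed alone, with 3 small RNA libraries in QHMM and 3 in STH, all from muscle of animals kept under natural conditions. Age, sex and the number of animals behind a library are not given in the labels, so the p-values cover only how these libraries vary, which may be technical. Total counts over the names ran from 5572865 to 7546762 in QHMM and from 6172849 to 7930202 in STH. The libraries carried the miRNAs of muscle fibres, with a summed level of 517816 to 546371 CPM (counts per 1000000 counts over all names of a library) in QHMM and 450124 to 536352 CPM in STH for miR-1, miR-133, miR-206, miR-208b and miR-499.

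miRNAs are short RNAs that guide a protein complex to matching sites in mRNAs, mainly through the seed, the bases near the 5′ end, and so lower the output of these mRNAs. The genes of miR-221 and miR-222 lie next to each other on the X chromosome of mammals and share 1 primary transcript and 1 seed. In mouse and human cells both are known to repress CDKN1B, an inhibitor of the cell cycle, and the receptor KIT. In cultured myoblasts of mouse and quail they are abundant while the cells divide and fall when these fuse into myotubes, and they are also made in endothelium and in smooth muscle of vessels.

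The sequences of the 4 names are shown because the seed and the bases after it decide which rows belong together. They are given as deposited, in DNA letters, with the seed (positions 2 to 8 from the 5′ end) in capitals.
miR-221: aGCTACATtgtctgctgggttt
miR-222-3p: aGCTACATctggctactgggtc
miR-221-5p: aCCTGGCAtacaatgtagatttc
miR-222-5p: gCTCAGTAgccagtgtagatc
miR-221 was listed as a sheep miRNA, and its sequence is that of the 3p arm by its shared seed with miR-222-3p. Both were 22 nt long, were identical over the first 8 bases and matched at 11 of 22 positions without gaps. A perfect match to their seed in an mRNA reads ATGTAGC. The sheep gene table of RefSeq (ARS-UI_Ramb_v3.0, a later assembly than the Oar_v3.1 of the files) places MIR221 within the long non-coding RNA gene LOC105605445. MIR222 was not matched in that table, so a shared transcript in sheep was not checked. miR-222-3p and miR-222-5p came from 1 predicted hairpin on chromosome X, named after the rat miRNA.

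miR-221 was the most abundant of the 4 names and stood at place 125 of 10430 by mean CPM. It had 1302, 1276 and 2302 counts in QHMM replicates 1, 2 and 3, and 2776, 1159 and 1600 counts in STH replicates 1, 2 and 3. Scaled to depth, these were 173, 229 and 309 CPM in QHMM, against 379, 188 and 202 CPM in STH. The highest level was that of STH replicate 1 and the lowest that of QHMM replicate 1, and the breeds overlapped. miR-222-3p followed at place 185, with 520, 566 and 723 counts in QHMM and 1505, 595 and 829 counts in STH. Its levels were 68.9, 102 and 97.1 CPM in QHMM, against 206, 96.4 and 105 CPM in STH. STH replicate 1 again stood highest and QHMM replicate 1 lowest, and the other 4 libraries lay between 96.4 and 105 CPM. The highest library exceeded the lowest 2.20-fold for miR-221 and 2.98-fold for miR-222-3p, where the median was 2.24-fold over the 930 names with at least 10 counts in every library. miR-221 exceeded miR-222-3p in each of the 6 libraries, with means of 247 ± 81.0 CPM and 112 ± 47.4 CPM (SD, n = 6). Small RNA libraries capture some sequences better than others, and the part of this in the order of the 2 miRNAs was not tested.

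**Figure D1:**
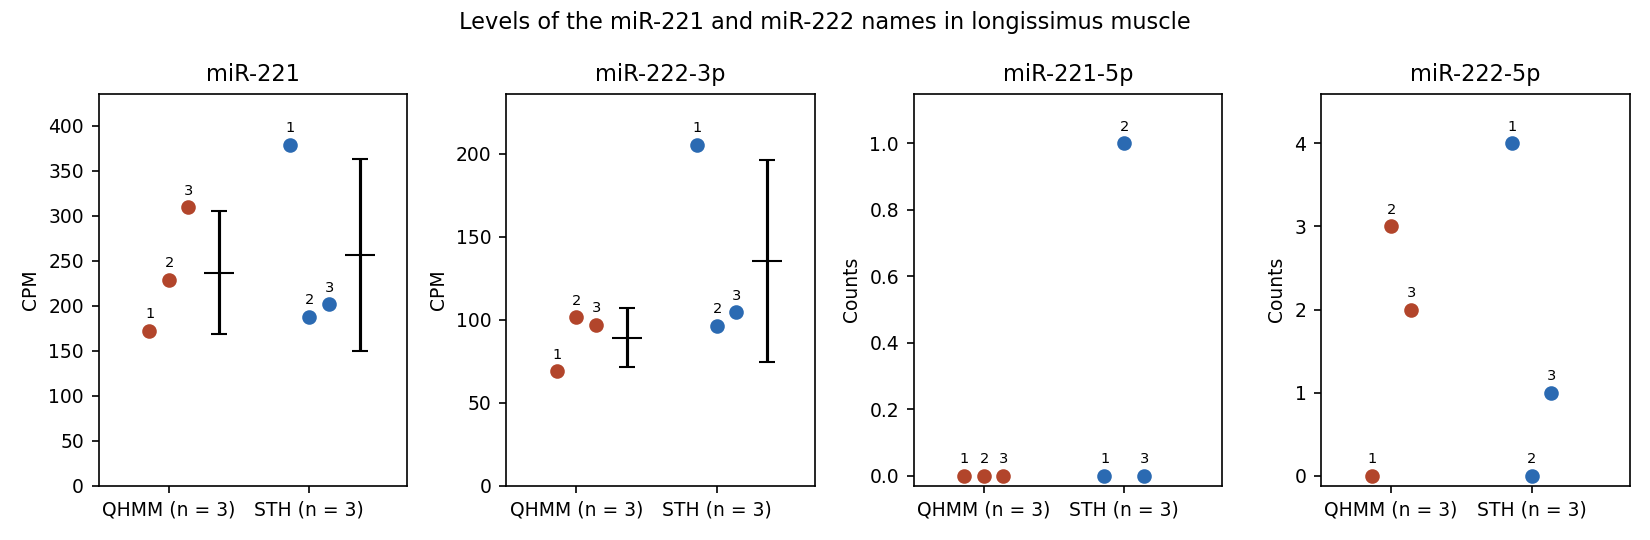
Levels of the 4 names by breed, as CPM for miR-221 and miR-222-3p and as counts for the 5p arms. Points are single libraries with their replicate number, and bars, drawn for the 3p arms, are means with their SD over 3 libraries. STH replicate 1 stands highest at 379 CPM of miR-221 and 206 CPM of miR-222-3p, and no 5p arm passes 4 counts.

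The 5p arms, the strands that are mostly discarded when a miRNA is loaded, were at or near 0. miR-222-5p had 0, 3 and 2 counts in QHMM and 4, 0 and 1 counts in STH. This was 0.211% of the 4748 counts of both miR-222 arms (95% Clopper-Pearson interval 0.101% to 0.387%). The level of miR-222-5p, as counts over the total of all names, each summed over the libraries of a breed, was 1.04 for QHMM over STH. This compares levels and not shares of both arms. For it, counting error alone spans 0.240 to 4.53 (95% interval). Differences inside this range could not be seen with so few counts. miR-221-5p, listed under its rat name, had 1 count in all, in STH replicate 2. Its share was 0.00960% of 10416 counts of both arms (interval 0.000243% to 0.0535%). In QHMM it had 0 of 1302, 0 of 1276 and 0 of 2302 counts, for which a limit of 3 counts over the total gives shares of up to 0.230%, 0.235% and 0.130%, and the upper ends of the Clopper-Pearson interval are 0.283%, 0.289% and 0.160%. Intervals and limits cover counting error only.

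miR-222-3p stood on 4 rows, and the rows other than the chromosome X one held few counts. The 2 rows under the plain rat and mouse names hold the same 21 nt, which are the first 21 of the 22 nt of the chromosome X row, and had 2 counts and 1 count in all against 4738. How a read that matches several rows was assigned was not tested. The fourth row was a predicted locus on chromosome 7 of 20 nt, shown here beside the chromosome X row because it carries the same seed.
chromosome X locus: aGCTACATctggctactgggtc
chromosome 7 locus: tGCTACATctggctactgga
It differed from the chromosome X row by A1T and G20A (positions from the 5′ end, the chromosome X base first). It had 2, 3 and 2 counts in QHMM and 7, 2 and 0 counts in STH, so that summing all rows changed miR-222-3p by at most 7 counts in a library.

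Neither 3p arm differed between the breeds beyond the spread of the libraries. miR-221 averaged 237 ± 68.7 CPM in QHMM and 256 ± 107 CPM in STH (SD, n = 3 each). Its log2 fold change, QHMM over STH, was -0.09 (standard error 0.34, 95% interval -0.82 to 0.64) with an adjusted p of 0.921 from edgeR's quasi-likelihood test. The sign rested on single libraries, being 0.26 without STH replicate 1 and 0.09 without QHMM replicate 1. miR-222-3p averaged 89.2 ± 17.7 CPM in QHMM and 135 ± 60.8 CPM in STH (SD, n = 3 each). Its log2 fold change was -0.57 (standard error 0.35, 95% interval -1.32 to 0.18) with an adjusted p of 0.493 from edgeR. Without STH replicate 1 it was -0.18, with an adjusted p of 0.883 from edgeR. Both intervals still hold changes of over 1.5-fold toward STH, so equal levels were not shown either. Of the 2 member names tested, 0 passed an adjusted p of 0.05, 0 had an unadjusted p under 0.05, and 0 passed with DESeq2. Among all 1274 names tested, 28 passed with edgeR, or 2.20%, 174 had an unadjusted p under 0.05 from edgeR, and 49 passed with DESeq2. Against these shares, a count of 0 among 2 names is not read as a result about them. Both 5p arms had too few counts to be tested. In whole muscle, fewer cells of a type and less RNA per cell cannot be told apart.

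**Figure D2:**
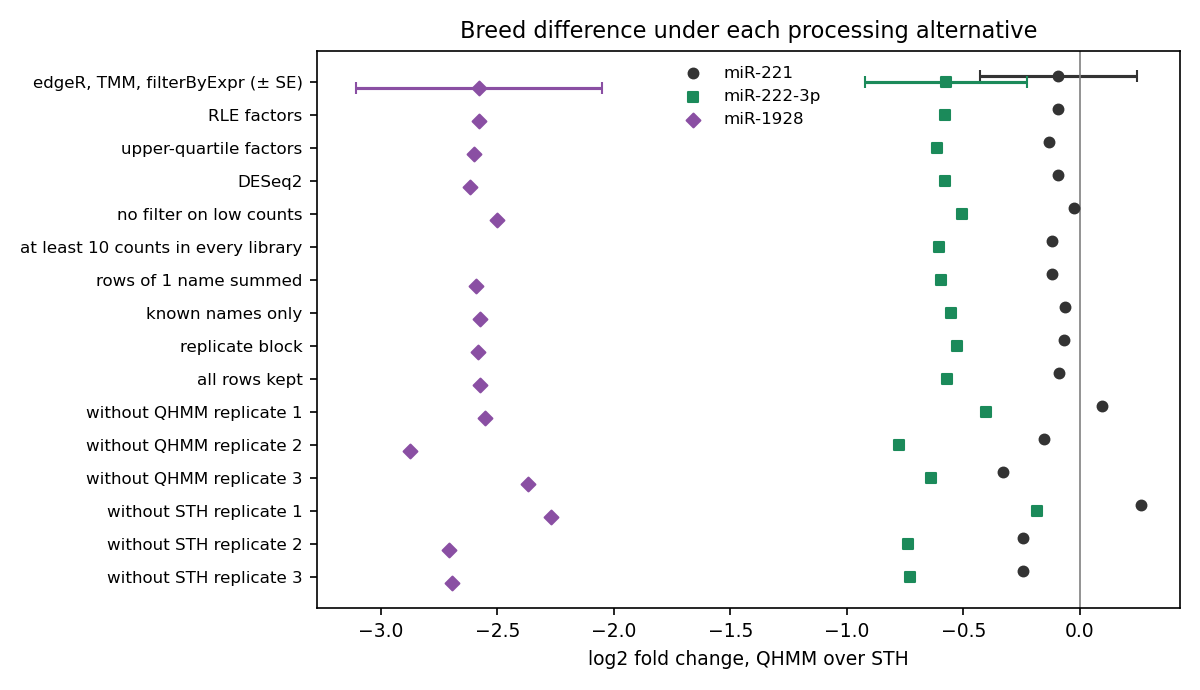
Log2 fold change, QHMM over STH, of miR-221, miR-222-3p and miR-1928 (horizontal axis) under each processing alternative (rows). Bars on the first row are the standard error. miR-221 lies on both sides of 0, between -0.33 and 0.26, whereas miR-222-3p stays below 0, between -0.78 and -0.18.

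Since the genes of both miRNAs lie side by side in mammals, their ratio within a library was compared, which does not depend on the library total. miR-222-3p had 0.399, 0.444 and 0.314 counts per count of miR-221 in QHMM replicates 1, 2 and 3, against 0.542, 0.513 and 0.518 in STH. The 3 STH libraries lay close together and above all 3 QHMM libraries, and QHMM replicate 3, where miR-221 was high and miR-222-3p was not, had the lowest ratio. The mean ratio was 0.386 ± 0.0658 in QHMM and 0.525 ± 0.0154 in STH (SD, n = 3 each). On the log2 scale (0.5 counts added), QHMM minus STH was -0.46 (standard error 0.15), a ratio 0.728 times that of STH. An exact two-sided permutation test gave p = 0.10, the smallest that 3 against 3 allow, and 0.30 after adjustment over the 3 ratios computed. Levels that do not overlap between the breeds were found for 17.2% of all names tested, and this share was not computed for ratios. The nearest libraries, QHMM replicate 2 and STH replicate 2, had 95% counting intervals of 0.401 to 0.490 and 0.464 to 0.567, which overlap. Without STH replicate 1, the library highest in both, the difference was -0.43. It was smallest, at -0.32, without QHMM replicate 3, the library with the lowest ratio. The other 2 ratios, of the 5p to the 3p arm, rest on 1 count for miR-221 and on 10 counts for miR-222 and were not read. That of miR-222 gave p = 0.40 in the same exact test and 0.10 with 5 counts added in place of 0.5, and its difference ran from 0.14 to 1.48 when single libraries were left out.

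**Figure D3:**
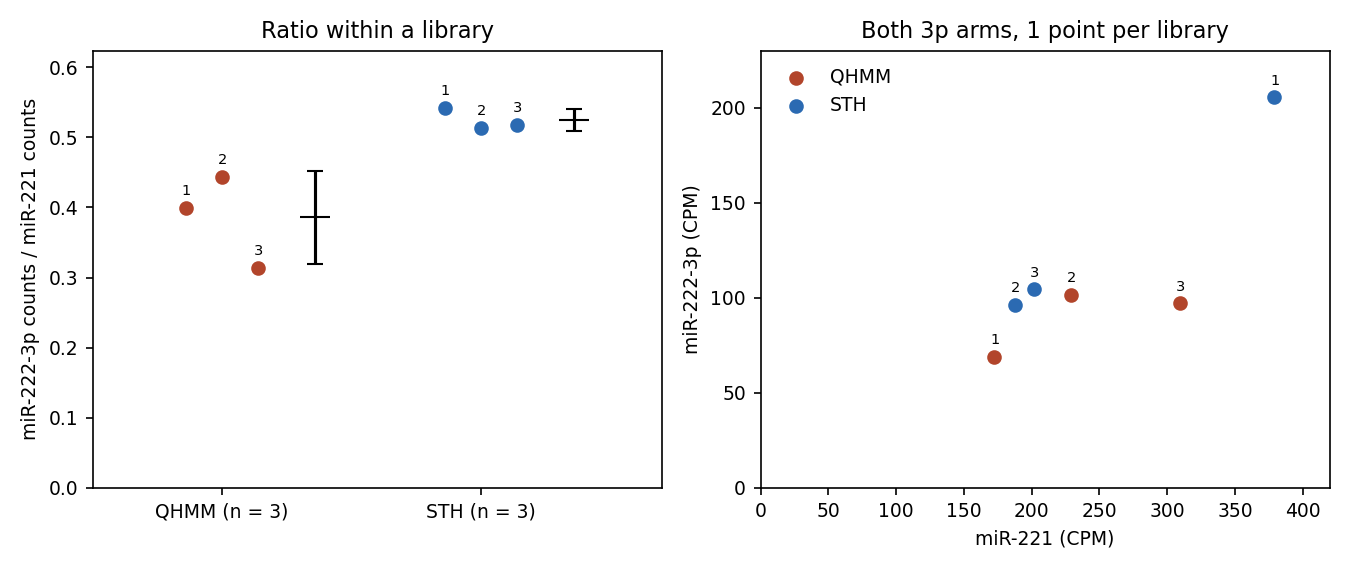
Counts of miR-222-3p per count of miR-221 in each library (left) and CPM of both against each other (right). Points are libraries with their replicate number, and each bar marks a mean with its SD over 3 libraries. The QHMM libraries lie between 0.314 and 0.444 and the STH libraries between 0.513 and 0.542, and STH replicate 1 stands apart in both levels.

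Across the 6 libraries both 3p arms tended to be high together. Pearson's r of log2 CPM was 0.82 (exact permutation p = 0.0222) and Spearman's rho 0.77 (exact permutation p = 0.103), the only relation of this kind that was tested. Without STH replicate 1 and QHMM replicate 3, the libraries farthest from the median of miR-221, r was 0.78 over 4 libraries. STH replicate 1 was highest in both arms, at 379 CPM of miR-221 and 206 CPM of miR-222-3p. QHMM replicate 3 was high in miR-221, at 309 CPM, but not in miR-222-3p, at 97.1 CPM, and so worked against the relation. Leaving out STH replicate 1 alone was not tested, so the value of 0.78 does not show that r holds without that library. A breed holds 3 libraries, too few for a value of its own.

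The library highest in both miRNAs also stood apart in markers of other cells. Fibroblast markers (miR-199a, miR-199b, miR-214, miR-21 and miR-140, 5 of 5 detected) summed to 37527 CPM in STH replicate 1, with miR-21 the most abundant of them over the libraries. They summed to 10773 to 15396 CPM in QHMM, and to 25146 and 10871 CPM in STH replicates 2 and 3. In STH replicate 1 the muscle fibre markers were lowest at 450124 CPM, and vessel wall markers (miR-126, miR-143, miR-145 and miR-218, 4 of 4 detected) were highest at 72091 CPM, against 42427 to 67427 CPM in QHMM and 58976 to 63199 CPM in the other STH libraries. Blood cell markers (miR-451, miR-144, miR-223, miR-142 and miR-150, 5 of 5 detected) were lowest in that library at 8436 CPM and highest, at 85240 CPM, in QHMM replicate 3, the library second in miR-221. This QHMM library was the lowest of the 6 in summed fibroblast and in summed vessel wall markers. The fibroblast sum is mostly miR-21, at a mean of 13759 CPM, against 2270 CPM for miR-140-3p, the next. Of its other markers, miR-199a-3p and miR-214-3p were second highest in QHMM replicate 3, at 2005 and 762 CPM, as miR-221 was. Blood cell markers summed to 20651 and 21283 CPM in QHMM replicates 1 and 2, and to 14719 and 9732 CPM in STH replicates 2 and 3. Epithelial markers (7 of 7 detected) were low, at 12.4 to 41.5 CPM in QHMM and 15.7 to 26.4 CPM in STH. Among these lists 1 name, miR-208b-3p of slow muscle fibres, was called higher in QHMM by edgeR, a call made for 0.314% of all names. DESeq2, which called 49 of the 1274 names in either direction, called it too. With it came miR-499-5p of slow fibres and the blood cell markers miR-451-5p and miR-142-3p, all higher in QHMM. The muscle fibre and blood cell lists each had 4 names higher and 1 lower in QHMM by edgeR. The lower ones were miR-206-3p and miR-223-3p, with log2 fold changes of -0.27 and -0.23. All 5 fibroblast and all 4 vessel wall names were lower in QHMM, with median log2 fold changes of -0.40 and -0.21. The median over all names tested was 0.03. Of the 2 epithelial names tested, 1 was higher and 1 lower in QHMM. The part of these cell types in the levels of miR-221 and miR-222 was not tested.

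**Figure D4:**
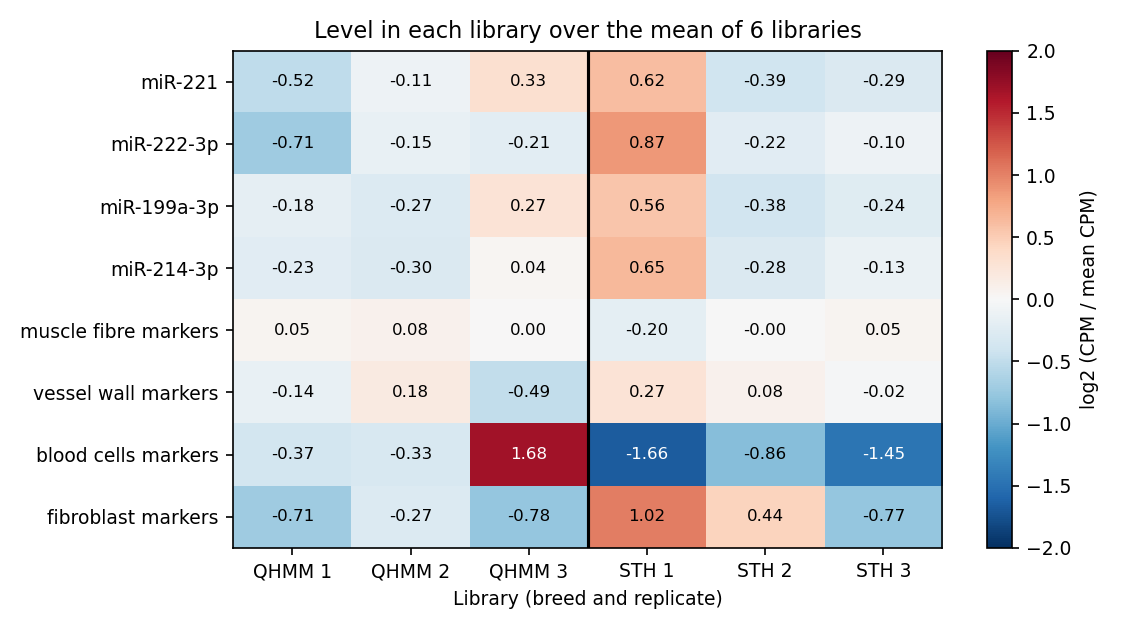
Level of miR-221, miR-222-3p, miR-199a-3p, miR-214-3p and 4 summed marker lists (rows) in each library (columns), as log2 of CPM over the mean of the 6 libraries. Red is above and blue below the mean. STH replicate 1 is at 0.62 for miR-221, 0.87 for miR-222-3p and 1.02 for the fibroblast markers, and QHMM replicate 3 is at 1.68 for the blood cell markers.

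The names whose pattern was most like that of each 3p arm were taken by Pearson's r of log2 CPM over the 6 libraries among 929 other names with at least 10 counts in every library, as a description. All points share their libraries. For miR-221 they included miR-199a-3p (r = 0.92), miR-214-3p (0.87) and miR-3120-5p (0.87). miR-199a-3p, a miRNA of fibroblasts and other mesenchymal cells, had 1475, 1377 and 2005 CPM in QHMM and 2448, 1278 and 1412 CPM in STH. Like miR-221 it was highest in STH replicate 1 and second highest in QHMM replicate 3. miR-214-3p, made from the same transcript as miR-199a in mammals, had the same libraries first and second, with 634, 605 and 762 CPM in QHMM and 1169, 610 and 677 CPM in STH. The other 2 of the 5 were unnamed predicted loci on chromosomes 1 (r = 0.94) and 3 (r = 0.90), and miR-222-3p itself came at place 14. These loci had means of 47.0 and 3.61 CPM, the latter a level where counting error weighs more. miR-199a-3p and miR-214-3p also stand among the fibroblast markers, so both descriptions share these names.

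For miR-222-3p the 3 nearest were unnamed predicted loci on chromosome 15 (r = 0.96) and chromosome 16 (r = 0.94 and 0.93). They are shown beside miR-145-5p, a miRNA of smooth muscle, with the longest stretch shared with it in capitals.
chromosome 15 locus, 19 nt: gtccagTTTCCCAGGAATC
chromosome 16 locus, 17 nt: accagtttCCAGGAATC
chromosome 16 locus, 19 nt: GTCCAGTTTTCCCAGtaat
miR-145-5p, 22 nt: GTCCAGTTTTCCCAGGAATCCC
These stretches were 13, 9 and 15 nt long, and the last locus differed from miR-145-5p over its whole length by G16T alone (miR-145-5p base first). miR-145-5p itself was not among the nearest, with r = 0.64 at place 72, and had 28454, 32594 and 22953 CPM in QHMM and 37747, 31220 and 28047 CPM in STH. The chromosome 15 locus had 139, 174 and 162 CPM in QHMM and 272, 177 and 203 CPM in STH, and so was highest in STH replicate 1 and lowest in QHMM replicate 1 as miR-222-3p was. The chromosome 16 loci were low, at means of 4.06 CPM for the 17 nt one and 8.59 CPM for the 19 nt one, where counting error weighs more. miR-421-3p (r = 0.91) and the chromosome 3 locus (0.92) completed the 5, and 1 name, that chromosome 3 locus, stood in both groups of 5. miR-221 came at place 21 for miR-222-3p.

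The seed shared by miR-221 and miR-222-3p stood on 6 rows of the table, 5 of them with a member name. Counted with 1 row per name it reached 15213 counts, place 81 among 6116 seeds, where the median seed had 6 counts. The sixth row was a mouse name, miR-1928, shown here with the seed in capitals because it is the only other carrier.
miR-1928: aGCTACATtgccagctc
miR-221: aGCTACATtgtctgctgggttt
Its 17 nt began with the same 10 bases as miR-221 and differed from it by T11C, T13A and G17C (miR-221 base first). miR-1928 had 3, 3 and 2 counts in QHMM, against 25, 11 and 16 counts in STH. The breeds did not overlap, as held for the CPM of 17.2% of all names tested. miR-1928 was lower in QHMM, at -2.58 on the log2 scale against STH (standard error 0.53, edgeR adjusted p 0.0232), as one of the 1.88% of names called lower in QHMM. The name passed the low-count filter only through STH, where it is high, so the call is given as a description. Its counts over the total of all names, each summed over the libraries of a breed, gave 0.160 for QHMM over STH (95% counting interval 0.0658 to 0.340). The call was lost with any 1 library left out, where adjusted p from edgeR ran from 0.0557 to 0.147 and the log2 fold change from -2.87 to -2.27. It held in the 8 other alternatives that kept the name. Its counts were 60 in all, against 10415 of miR-221, and whether they come from a miRNA gene of sheep was not tested.

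miR-221 and miR-222-3p were also set beside 2 lists of miRNAs known for a role in myoblasts, without those of muscle fibres named above. Among all 1274 names tested, edgeR called 28 and DESeq2 49, and 174 had an unadjusted p under 0.05 from edgeR. Against these shares, a count of 0 calls in lists of this length is not read as a result about them. Of 14 names matched to miRNAs known to favour differentiation, 0 passed with edgeR or DESeq2 and 0 had an unadjusted p under 0.05 from edgeR. For miR-29c and miR-424 the matched names were miR-29c-5p and miR-424-3p, and whether these arms hold the known role was not tested. The log2 fold changes of the 14 names, QHMM over STH, had a median of 0.11, against 0.03 over all 1274 names tested. The most abundant were miR-26a, which represses the methyltransferase EZH2, with 36419 ± 2972 CPM in QHMM and 41923 ± 6064 CPM in STH, and miR-29a, known for repressing collagens, with 4786 ± 486 CPM in QHMM and 4117 ± 454 CPM in STH (SD, n = 3 each). miR-24-3p and miR-181a had log2 fold changes of -0.13 and 0.11. Of 10 miRNAs known to favour proliferation or to restrain differentiation, 0 passed with edgeR or DESeq2 and 0 had an unadjusted p under 0.05 from edgeR. Their median was 0.06. miR-19b of the miR-17 cluster had 11993 ± 758 CPM in QHMM and 14403 ± 1275 CPM in STH (SD, n = 3 each), a log2 fold change of -0.26. miR-125b, a repressor of IGF2 in mouse myoblasts, was at 0.14, miR-23a at -0.01 and miR-199a-3p at -0.08. The widest value of either list was that of miR-20a-5p at 0.91 (standard error 0.46, adjusted p = 0.417 from edgeR), with 104 ± 65.8 CPM in QHMM and 53.5 ± 9.02 CPM in STH (SD, n = 3 each).

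**Figure D5:**
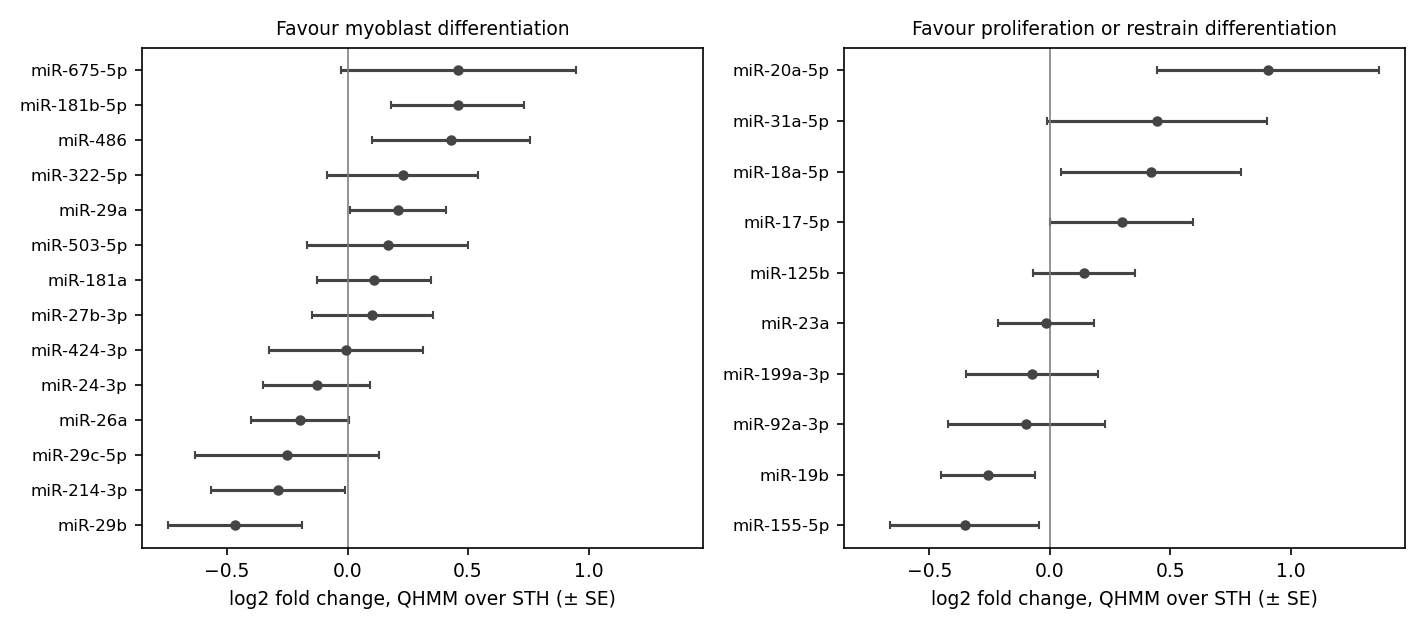
Log2 fold change, QHMM over STH, with its standard error (horizontal axis). Shown are 14 names matched to miRNAs that favour myoblast differentiation (left) and 10 matched to those that favour proliferation or restrain differentiation (right). Values run from -0.47 for miR-29b to 0.46 for miR-675-5p on the left and from -0.35 for miR-155-5p to 0.91 for miR-20a-5p on the right.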

How the data were processed

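The values the authors deposited are unnormalized counts of reads for each mature sequence in each library, made from size-selected small RNA sequenced on an Ion Proton instrument. DESeq and the build Oar_v3.1 are named in the submitters' processing notes, while aligner, miRNA caller and strand rule were not given in the sources used here. Names were taken after any @@ and without species prefix, and a name on several rows was represented by its most counted row. CPM were computed over 1 row per name. All names kept by filterByExpr were fitted with edgeR 4.0.16 in R 4.3.3 (TMM factors, robust quasi-likelihood test, no covariates, Benjamini-Hochberg adjusted p under 0.05 over 1274 names), and the method was tested on simulated data. Standard errors came from the F statistic. The 95% intervals of log2 fold changes used the total degrees of freedom of the test, 13.3. These add degrees of freedom borrowed across names to the residual ones. DESeq2 1.42.0, other factors and filters, summed or separate rows, known names only, a replicate block, another pseudocount (5 counts) and leaving out each library were alternatives. Ratios used exact permutation tests in Python 3.11.15 with scipy 1.17.1. Replicates of a breed differed far beyond sampling noise (chi-square per degree of freedom of at least 75.7). List entries were matched to the name with the highest total. Named were the members, carriers of their seed, the 5 names most like each 3p arm, and of each list the 4 most abundant and any past the threshold, while miR-20a-5p, miR-29b, miR-155-5p and miR-675-5p were chosen after their values were seen. The members and lists were chosen with earlier results of these data known.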

Additional observations from a re-analysis of the deposited data

How the results depend on the processing

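miR-222-3p kept its direction and stayed short of the threshold in 15 of 15 alternatives (log2 fold change -0.78 to -0.18, adjusted p = 0.398 to 0.883 from edgeR or DESeq2), and the ratio of miR-222-3p to miR-221 kept its direction in 9 of 9 (-0.57 to -0.32). miR-221 kept its direction in 13 of 15 and ran from -0.33 to 0.26 with each library left out. The ratio of miR-221-5p to miR-221, -0.39, rests on 1 count and was 0.055 with a pseudocount of 5 counts and -0.99 to 0.43 when single libraries were left out. Leaving out single libraries took miR-24-3p to values between -0.25 and 0.0031, miR-181a between -0.092 and 0.26, miR-23a between -0.12 and 0.051 (0.064 with no filter on low counts), miR-125b between -0.022 and 0.26 and miR-199a-3p between -0.27 and 0.23. The 28 calls were 49 with DESeq2, 64 without the low-count filter, 8 when all libraries had to hold 10 counts or more, 6 with known names only and between 16 and 35 when single libraries were left out (16 without QHMM replicate 3 or without STH replicate 3, 18 without STH replicate 2). miR-1928 had too few counts for the filter of 10 counts in every library. The filter of 10 counts and the limit to known names leave fewer names to test. Why the number of calls changed was not tested for any setting. The replicate block gave 26 calls, and log2 fold changes of -0.07 for miR-221 and -0.53 for miR-222-3p. Libraries with the same replicate number deviated from their breed means with correlations of 0.061, 0.24 and 0.12, so the number was not taken as a pairing. The highest correlation of each library was with its own number, which is a hint from these values and not from the design. Mean CPM of the 4 names moved by less than 1 SD between libraries in each alternative, and depth limits the 5p arms. With the total taken over all rows, the mean was lower, at 178 CPM for miR-221 and 81.2 CPM for miR-222-3p, against 247 and 112 CPM.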

Other observations

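miR-3120-5p and miR-214-3p, both near miR-221 in pattern, are mirror strands over 19 nt, and their counts were nearly equal in every library, at 0.975 to 1.04 counts of miR-214-3p per count of miR-3120-5p. Without the strand rule of the counting, their levels cannot be told apart. For miR-221 and miR-222-3p no row held a stretch of the opposite strand longer than 10 nt.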
